A study of Gallus gallus with 106 samples.

Results

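The 6 genes described here act in Wnt signalling outside the cell: the ligands WNT4, WNT5A, WNT5B and WNT10A, the secreted frizzled-related protein SFRP5 and the glypican GPC3. They were chosen by name from a targeted RNA-seq panel of 569 genes, and each was represented by 1 transcript. Expression was measured in primary satellite cells, the stem cells of muscle, isolated from the Pectoralis major of wild-type (WT) broiler chickens and kept in differentiation medium at 1% O2 (hypoxia) or 20% O2 (normoxia) for 48 h. Hypoxia and normoxia were each sampled at 12, 24, 36 and 48 h with 6 biological libraries per harvest, and 5 normoxia libraries were taken at 0 h, before differentiation was induced. The medium was changed between 0 h and all later harvests, so time and medium cannot be told apart in comparisons with 0 h. Comparisons of hypoxia with 0 h also differ in oxygen, since the 0 h libraries were at 20% O2. The labels do not give the number of birds behind the primary cells or say that libraries came from separate birds. The p-values therefore describe the spread among these libraries, part of which may be technical.

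Wnt proteins are secreted lipid-modified ligands that bind Frizzled receptors on nearby cells. Some ligands act mainly through stabilisation of beta-catenin, whereas WNT5A and WNT5B are best known for beta-catenin-independent signalling that affects cell polarity and movement. Secreted frizzled-related proteins bind Wnt ligands and can keep them from their receptors, and glypicans are membrane-anchored heparan sulfate proteoglycans that alter how Wnt and other growth factors reach their receptors. In muscle, Wnt signals are known to take part in satellite cell division, commitment and fusion.

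Coordinates are those of the deposited table in the galGal6 build, and each span covers the annotated transcript from its first to its last exon. WNT4 lies on the plus strand of chromosome 21 from 6313309 to 6325046, with 5 exons. WNT5A lies on the minus strand of chromosome 12 from 8303804 to 8315223 and WNT5B on the plus strand of chromosome 1 from 60852680 to 60917603, also with 5 exons each. The other members are WNT10A on chromosome 7 from 22386125 to 22397621 (minus strand, 4 exons), SFRP5 on chromosome 6 from 23251548 to 23253727 (plus strand, 3 exons) and GPC3 on chromosome 4 from 3845726 to 3958957 (minus strand, 8 exons). Per the labels, amplicons were designed to cross exon boundaries, and the sources used here do not say which exons they cover. Amplicon yield differs between genes, so a higher level of 1 gene than of another is not read as more RNA. Count ratios and marker sums over different genes carry that yield.

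The median library held 759253 counts, and the libraries spanned 171196 to 1448544. Levels are normalised read counts (CPM, TMM-scaled), and differences are given as log2 changes and their standard error (SE) from edgeR's quasi-likelihood test, with Benjamini-Hochberg adjustment over the 453 tested genes and a threshold of 0.05. A score of 17 genes that moved together within groups left a gap between 6.48 and 7.55, and 17 of 53 libraries lay above it. In hypoxia 1 of 6 libraries stood above it at each harvest before 48 h and 2 of 6 did then. In normoxia those above it were 4 of the 6 taken at 12 h, 5 of the 6 from 48 h, 1 of 6 from either harvest between these, and 1 of the 5 from 0 h. Within groups the Pearson correlation of each member with this score lay between -0.15 and 0.20 over 53 libraries that share their depth and scaling. The 10 myogenic markers on the panel were above 0 in every library, as were the tested markers of other cell types. Between hypoxia and normoxia PAX7, MYOD1, MYOG, DES and MYF5 did not pass, NCAM1 was higher at each of the 4 harvests, PAX3 from 24 h on and MYF6 at 24 h, and ITGA7 was lower at 12 h and MYH1D at 48 h. The 6 members differed in depth, with 86528 counts in all for WNT5A, 74379 for SFRP5, 36198 for WNT5B, 7829 for GPC3, 1243 for WNT10A and 249 for WNT4.

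In hypoxia, WNT5A and GPC3 were lower than in normoxia at each of the 4 harvests. SFRP5 was higher from 24 h on, WNT10A at 36 and 48 h, and WNT5B and WNT4 at 48 h. At 12 h 2 of 6 members passed the threshold, when 17.9% of the 453 tested genes did, with 0 higher and 2 lower against 7.51% and 10.4% of tested genes. At 24 h 3 of 6 passed (18.5% of tested genes), with 1 higher and 2 lower against 9.93% and 8.61%. At 36 h 4 of 6 passed (16.3% of tested genes), with 2 higher and 2 lower against 6.18% and 10.2%. At 48 h 6 of 6 passed (22.3% of tested genes), with 4 higher and 2 lower against 13% and 9.27%. WNT4 entered the test only through its 0 h counts, and its 48 h call rests on 21 counts in hypoxia and 5 in normoxia. Without WNT4, 2, 3, 4 and 5 of 5 members passed at the 4 harvests, at 48 h with 3 higher and 2 lower. WNT4 had too few counts after 0 h for a fold. The median log2 change of the 5 other members was 0.02, 0.14, 0.52 and 0.76 at the 4 harvests, and that of all tested genes was 0.04, 0.01, 0.00 and 0.01. These members moved in both directions, so their median is the value of SFRP5 at 12 h and of WNT5B later. It is not a shift of the set. Without the 17 libraries above the gap, the counts were 2, 3, 3 and 1 of 6, against 5.15%, 14.2%, 10.7% and 4.72% of the genes tested there, and in that fit normoxia at 48 h is a single library assumed to vary like the other groups. In bulk samples, fewer cells of a type and less RNA per cell cannot be told apart.

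**Figure D1:**
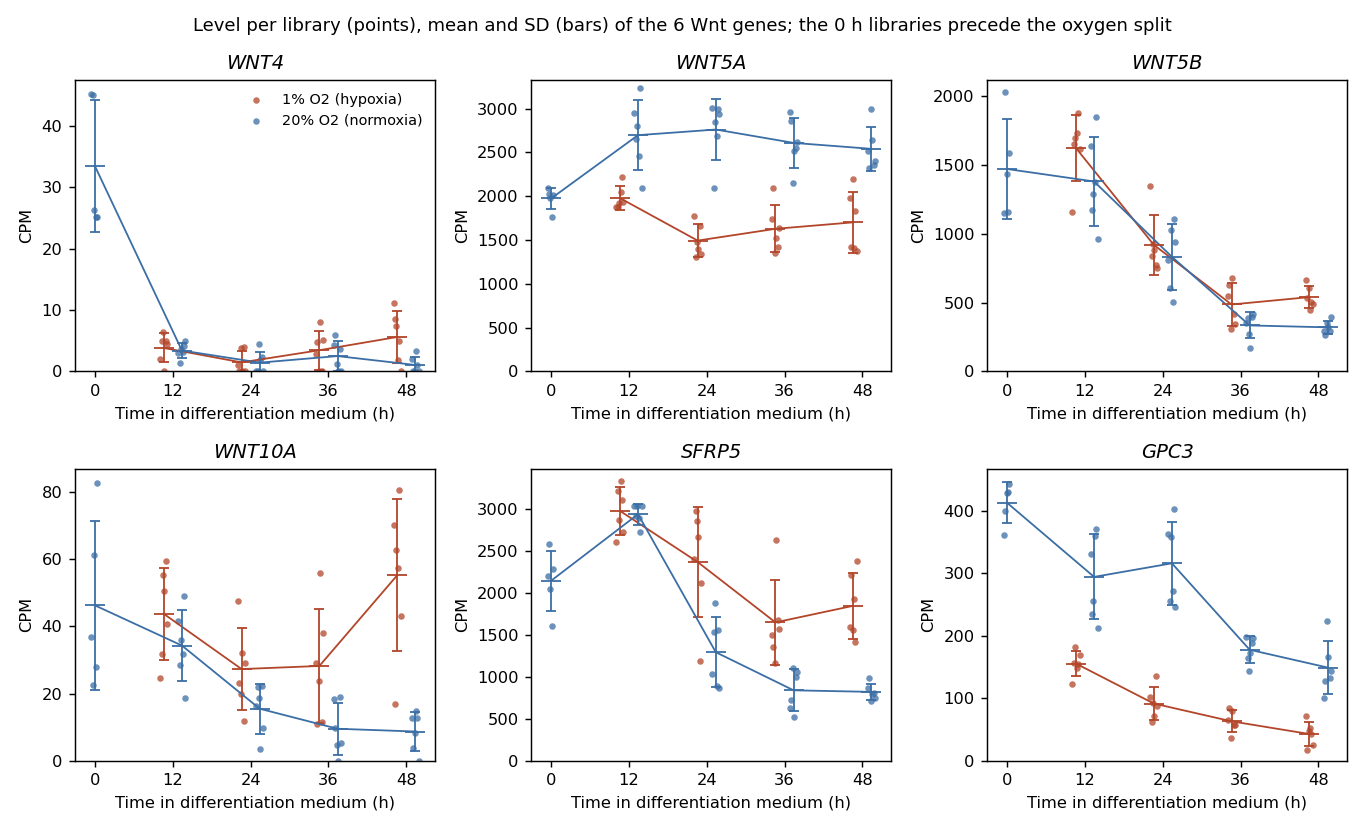
Level of each gene in CPM (vertical axes, each on its own scale) against time in h, with 1 point per library (n = 5 at 0 h and 6 in every other group), the mean as a short line and the SD as a bar. Hypoxia points of WNT5A and GPC3 sit below the normoxia points from 24 h on, those of SFRP5 lie higher from 36 h on, and WNT4 is near 0 in every group after 0 h.

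WNT5A, the ligand with most counts, was lower under hypoxia throughout. At 12 h it ran from 1872 to 2224.5 CPM (median 1928) in hypoxia and from 2091 to 3234 CPM (median 2731) in normoxia, so the top of the hypoxia range overlapped the bottom of the normoxia range. The log2 change at 12 h was -0.45 (SE 0.11, adjusted p = 0.00202), with 6 of 6 hypoxia libraries below the normoxia mean. At 24 h the libraries ran from 1309.9 to 1776.5 CPM (median 1437) in hypoxia and from 2096 to 3009 CPM (median 2895) in normoxia. These ranges did not overlap, and the log2 change was -0.88 (SE 0.11, adjusted p = 4.87e-09).

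The separation of WNT5A held at the later harvests. At 36 h it ran from 1354 to 2095 CPM (median 1578.5) in hypoxia and from 2154 to 2957 CPM (median 2584) in normoxia, a log2 change of -0.68 (SE 0.11, adjusted p = 3.26e-06). By 48 h hypoxia libraries held 1376.5 to 2194 CPM (median 1627) and normoxia libraries 2325 to 2998 CPM (median 2464), a log2 change of -0.57 (SE 0.11, adjusted p = 4.06e-05). Neither pair of ranges overlapped. Across all 9 groups the 4 differentiating normoxia groups had the highest WNT5A means, from 2542 to 2762 CPM, and the lowest of them (48 h) was the only group whose range was clear of the next in order, hypoxia at 12 h with 1979.6 ± 135 CPM (SD, n = 6). The difference of the hypoxia effect between harvests did not pass for WNT5A (adjusted p = 0.201). The 12 h call was lost with technical replicate 1 alone (log2 -0.26, adjusted p = 0.179), and the 48 h call without the libraries above the gap (log2 -0.53, adjusted p = 0.189).

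WNT5B, the close relative of WNT5A, did not follow it. At 12 h it ran from 1161 to 1875 CPM (median 1677) in hypoxia and from 962 to 1849.8 CPM (median 1332) in normoxia. At 24 h the values were 755 to 1345.6 CPM (median 861) in hypoxia and 507 to 1110.3 CPM (median 875) in normoxia. The groups overlapped over most of their range at both times, with log2 changes of 0.23 (SE 0.20, adjusted p = 0.379) and 0.14 (SE 0.20, adjusted p = 0.738). The 95% intervals of these changes, -0.17 to 0.63 and -0.26 to 0.55, leave room for changes in either direction.

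At 36 h WNT5B ran from 305 to 679 CPM (median 483) in hypoxia and from 173 to 418 CPM (median 372) in normoxia, with a log2 value of 0.52 that did not pass (SE 0.20, adjusted p = 0.0698). It passed in DESeq2 and without replicate 6, with an adjusted p of 0.0321 at the lowest. It was 448 to 666 CPM (median 517) in hypoxia at 48 h and 264 to 394 CPM (median 308) in normoxia. The 48 h ranges did not overlap, and WNT5B was higher in hypoxia by a log2 change of 0.76 (SE 0.20, adjusted p = 0.0034). The difference between harvests did not pass (adjusted p = 0.365). The 48 h call was lost with technical replicate 1 alone and without the libraries above the gap, where the log2 value was 0.36 (adjusted p = 0.762).

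WNT10A, a ligand best known for beta-catenin-dependent signalling in the skin appendages and teeth of mammals, had few counts and the largest difference of a member at 48 h. At 12 h it ran from 24.6 to 59.4 CPM (median 45.6) in hypoxia and from 18.6 to 49.1 CPM (median 33.9) in normoxia, and at 24 h from 11.9 to 47.5 CPM (median 26.2) in hypoxia and from 3.61 to 22.2 CPM (median 17.6) in normoxia. The ranges overlapped at both times, and the log2 values of 0.33 (SE 0.40, adjusted p = 0.542) and 0.79 (SE 0.44, adjusted p = 0.254) did not pass. Technical replicates of one library differed by a median of 0.81 on the log2 scale for WNT10A, against 0.24 for WNT5A, after 1 CPM was added.

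At 36 h WNT10A ran from 11.1 to 55.9 CPM (median 26.3) in hypoxia and from 0 to 19.005 CPM (median 7.52) in normoxia, with overlapping ranges and a log2 change of 1.29 (SE 0.45, adjusted p = 0.0421). That call was lost in 8 of 16 alternatives, among them the fits without replicate 1, 3, 4 or 6, with values from 0.76 to 1.91 and adjusted p of up to 0.411 over the 16. At 48 h it ran from 16.98 to 80.7 CPM (median 60.1) in hypoxia and from 0 to 14.8 CPM (median 10.4) in normoxia. Every hypoxia library was above every normoxia library, with 4 to 66 counts per library in hypoxia and 0 to 13 in normoxia, 216 against 45 in all. The log2 change was 2.50 (SE 0.45, adjusted p = 1.75e-05), with a 95% interval from 1.59 to 3.40. The difference between harvests did not pass (adjusted p = 0.0524), and it passed in 4 of 16 alternatives. Without the libraries above the gap the only normoxia library left at 48 h held 0 WNT10A counts, and the call was lost (adjusted p = 0.062).

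WNT4, a ligand needed for kidney and gonad development in mammals, was largely confined to the 0 h libraries. It held 25.2, 25.2, 26.3, 45.1 and 45.2 CPM there, and in the 8 later groups the means lay between 1.05 and 5.61 CPM. Of its 249 counts 143 came from the 5 libraries at 0 h, and 15 of all 53 libraries were at 0. In the 15 libraries at 0, 3 counts would equal 2.38 to 17.5 CPM of the raw library total, depending on depth. Most later values are thus at the limit of detection, and no fold of WNT4 is given. Summed over 6 libraries, hypoxia against normoxia held 20 and 20 counts at 12 h, 9 and 8 at 24 h, and 11 and 12 at 36 h, with adjusted p of 0.733, 0.992 and 0.992.

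At 48 h the sums of WNT4 were 21 counts in hypoxia and 5 in normoxia. The hypoxia libraries held 7, 2, 7, 1, 4 and 0 counts and the normoxia libraries 2, 0, 0, 2, 1 and 0, so that the groups overlapped. The test passed (adjusted p = 0.0223), but the call was lost in DESeq2, without replicate 1, 2, 3 or 5, and without the libraries above the gap, where the one normoxia library left held 0 counts. The largest adjusted p over 13 alternatives that could test WNT4 was 0.67.

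**Figure D2:**
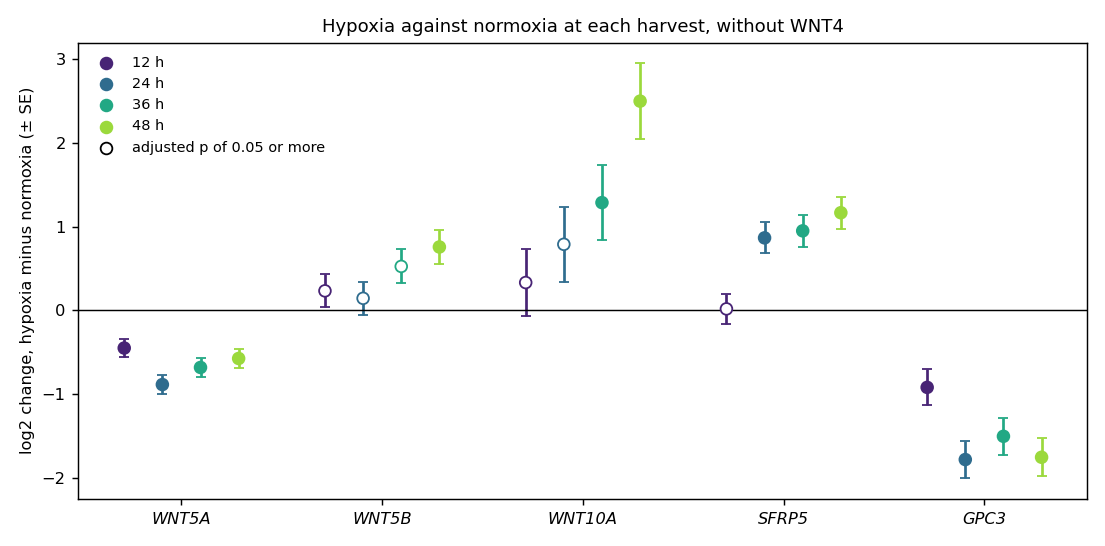
Log2 change of hypoxia over normoxia (vertical axis, ± SE) of 5 genes (WNT4 is left out) at 12, 24, 36 and 48 h, with filled points for an adjusted p under 0.05 and open points for the others. GPC3 and WNT5A lie below 0 at each of the 4 harvests, and at 48 h WNT5B, WNT10A and SFRP5 lie above 0 with filled points.

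SFRP5, the secreted Wnt-binding protein, showed no difference beyond the replicate spread at 12 h and was higher in hypoxia afterwards. At 12 h it ran from 2609 to 3334 CPM (median 2988) in hypoxia and from 2723 to 3038 CPM (median 2972) in normoxia, a log2 change of 0.02 (SE 0.18, adjusted p = 0.941) with a 95% interval from -0.35 to 0.38. At 24 h it ran from 1189.5 to 2970.3 CPM (median 2535) in hypoxia and from 868 to 1874 CPM (median 1282) in normoxia. The 24 h ranges overlapped through 1 hypoxia library below the normoxia mean, and the log2 change was 0.87 (SE 0.19, adjusted p = 0.000322).

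At 36 h SFRP5 ran from 1163 to 2625 CPM (median 1534) in hypoxia and from 519 to 1109.9 CPM (median 863) in normoxia, a log2 change of 0.95 (SE 0.19, adjusted p = 0.000139). Hypoxia libraries at 48 h held 1409.8 to 2378 CPM (median 1758) and normoxia libraries 708 to 988 CPM (median 804), a log2 change of 1.16 (SE 0.19, adjusted p = 3.15e-06). Hypoxia was above normoxia in every library at 36 and 48 h. SFRP5 was the only member whose hypoxia effect differed between the 4 harvests (adjusted p = 0.00581), a test that 10.6% of tested genes passed. That difference did not pass with scaling to reference genes, with technical replicate 2 alone or without the libraries above the gap (adjusted p = 0.599). The 48 h change without those libraries was 1.19 (adjusted p = 0.121).

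GPC3, which in mammals restrains growth and is lost in an overgrowth syndrome of humans, was the member furthest below normoxia. At 12 h it ran from 122 to 182 CPM (median 155) in hypoxia and from 213 to 371 CPM (median 293) in normoxia, a log2 change of -0.92 (SE 0.22, adjusted p = 0.00177). At 24 h it ran from 61.6 to 135 CPM (median 89.6) in hypoxia and from 245 to 402 CPM (median 314) in normoxia, a log2 change of -1.78 (SE 0.22, adjusted p = 6.69e-09). The ranges were already apart at 12 h and stood further apart at 24 h.

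At 36 h GPC3 ran from 36.3 to 83.9 CPM (median 60.8) in hypoxia and from 143 to 199 CPM (median 181) in normoxia, a log2 change of -1.5 (SE 0.22, adjusted p = 7.45e-07). At 48 h it was 16.98 to 71.9 CPM (median 45.0) in hypoxia and 100.4 to 223 CPM (median 138) in normoxia. No hypoxia library reached any normoxia library, and the level in hypoxia was 0.297 times that in normoxia (log2 -1.75, SE 0.23, adjusted p = 2e-08). The call of GPC3 held at each harvest in each of the 16 alternatives, with adjusted p of up to 0.0299 at 12 h. The difference between harvests did not pass (adjusted p = 0.135).

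The number of members whose hypoxia and normoxia ranges did not overlap was 1 of 6 at 12 h, 2 at 24 h, 3 at 36 h and 5 at 48 h. Over all tested genes the shares were 13.9%, 7.28%, 6.4% and 15.5%.

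The course from 0 h was described in each oxygen level at 12 and 48 h, and all of these comparisons share the same 5 normoxia libraries at 0 h. WNT4 reached 10 counts only in 0 h libraries and entered the test through them. It therefore had to differ from 0 h, and it is left out of the counts that follow. At 12 h in hypoxia 1 of the 5 other members passed, GPC3 lower, against 27.2% of tested genes (12.1% higher, 15% lower). At 12 h in normoxia 1 of 5 passed, WNT5A higher, against 18.1% of tested genes (10.8% higher, 7.28% lower). By 48 h in hypoxia 2 of 5 had passed, WNT5B and GPC3 lower, against 44.2% of tested genes (19% higher, 25.2% lower). By 48 h in normoxia 5 of 5 had passed, with WNT5A higher and the other 4 lower, against 40.6% of tested genes (15.5% higher, 25.2% lower). Ranges apart from those at 0 h were found for 2 of 5 members at 12 h in hypoxia (20.3% of tested genes) and 1 in normoxia (15.2%), and at 48 h for 2 in hypoxia (30.9%) and 5 in normoxia (31.6%). The median log2 change of the 5 members at 48 h was -0.22 in hypoxia (the value of SFRP5) and -1.46 in normoxia (that of GPC3). The median of all tested genes was 0.01 in both.

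Markers of other cell types also moved between 0 h and 48 h. The summed level of the 4 endothelial markers ran from 214 to 569.6 CPM in hypoxia at 48 h and from 95.4 to 245 CPM in normoxia at 48 h, against 687 to 1469 CPM at 0 h. Of 3 tested endothelial markers 2 were lower than at 0 h in hypoxia and 3 in normoxia, and VWF changed by log2 -2.53 in hypoxia and -3.64 in normoxia. Of 5 tested adipocyte markers FABP4 and PPARG were higher than at 0 h in both, with ADIPOQ also higher in hypoxia. PLIN1 and LPL passed in neither. Of 7 tested fibroblast markers 2 were higher and 3 lower in hypoxia, and 2 higher and 2 lower in normoxia. Over all tested genes 44.2% passed in hypoxia and 40.6% in normoxia at 48 h. The part of these markers in the changes of the members from 0 h was not tested.

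WNT5A stood at 1768, 1976, 2013, 2024 and 2095 CPM at 0 h. At 12 h its log2 change from 0 h was 0.00 in hypoxia (SE 0.11, adjusted p = 0.994) and 0.45 in normoxia (SE 0.11, adjusted p = 0.00206). At 48 h it was -0.21 in hypoxia (SE 0.11, adjusted p = 0.136) and 0.37 in normoxia (SE 0.11, adjusted p = 0.00728). All 6 normoxia libraries were above the 0 h mean at both times. The 12 h call in normoxia was lost with technical replicate 1 alone, and the 48 h call without replicate 4 and without the libraries above the gap. In hypoxia the 48 h value passed as lower with scaling to reference genes and without replicate 3.

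WNT5B stood at 1151, 1157, 1434, 1585.5 and 2027 CPM at 0 h, and its 12 h values overlapped these at both oxygen levels. At 48 h every library was below every 0 h library, with log2 changes of -1.44 in hypoxia (SE 0.21, adjusted p = 1.1e-07) and -2.20 in normoxia (SE 0.21, adjusted p = 1.86e-12). WNT10A stood at 22.6, 27.9, 36.8, 61.3 and 82.7 CPM at 0 h. At 48 h its normoxia libraries were all lower than these (log2 -2.23, SE 0.46, adjusted p = 6.33e-05), whereas the hypoxia libraries overlapped them, with a log2 value of 0.26 (SE 0.41, adjusted p = 0.646) and a 95% interval from -0.57 to 1.10.

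SFRP5 stood at 1611, 2043, 2205.5, 2286 and 2581 CPM at 0 h. At 12 h each library was above each 0 h library at both oxygen levels, with log2 values of 0.47 in hypoxia (SE 0.19, adjusted p = 0.061) and 0.46 in normoxia (SE 0.19, adjusted p = 0.0976) that did not pass over all tested genes. Both passed when only the groups compared were fitted. At 48 h the hypoxia libraries overlapped those at 0 h (log2 -0.22, SE 0.19, adjusted p = 0.373), and the normoxia libraries were all lower than at 0 h (log2 -1.39, SE 0.20, adjusted p = 4.34e-08).

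GPC3 stood at 361, 399.6, 427, 430 and 443 CPM at 0 h. At 12 h it was lower in hypoxia (log2 -1.41, SE 0.22, adjusted p = 1.87e-06), and the log2 value in normoxia was -0.49 (SE 0.22, adjusted p = 0.134). At 48 h it was lower at both oxygen levels, by log2 changes of -3.21 in hypoxia (SE 0.24, adjusted p = 2.65e-16) and -1.46 in normoxia (SE 0.23, adjusted p = 3.23e-07). Over the 9 groups the highest GPC3 mean was 412 ± 32.7 CPM at 0 h (SD, n = 5) and the lowest 42.8 ± 19.5 CPM in hypoxia at 48 h (SD, n = 6). In that order the ranges of neighbours were apart only between normoxia at 12 h and normoxia at 36 h.

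WNT4 held 143 counts in the 5 libraries at 0 h and at most 7 in any later library. Its highest value after 0 h was 11.2 CPM, in hypoxia at 48 h, against a lowest value of 25.2 CPM at 0 h, so the later libraries did not overlap those at 0 h. These values are a description with no test.

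**Figure D3:**
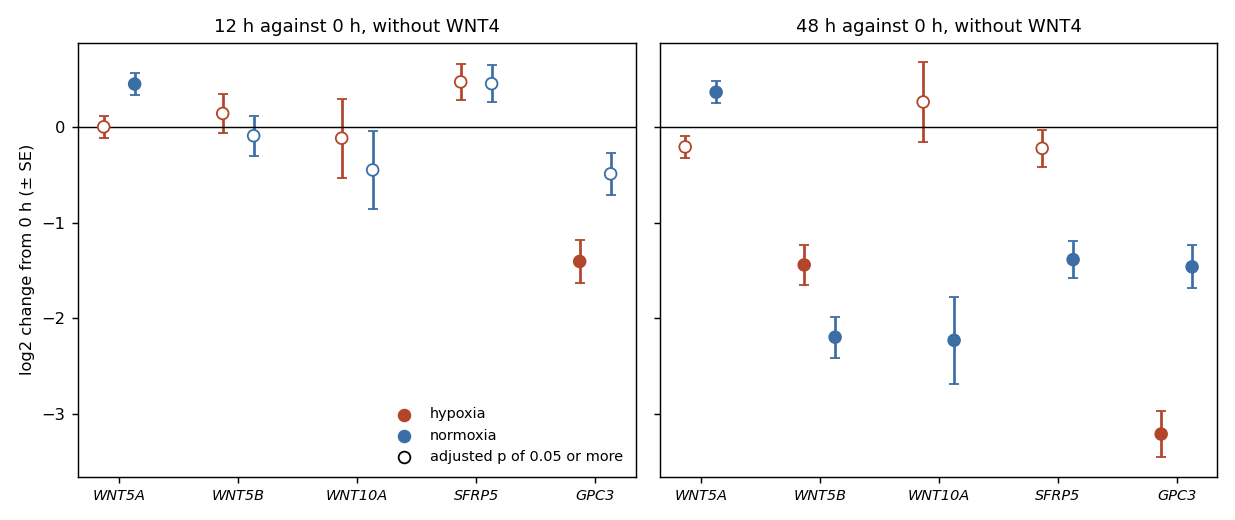
Log2 change from 0 h (vertical axis, ± SE) of 5 genes (WNT4 is left out) at 12 h (left) and 48 h (right) in hypoxia and normoxia, with filled points for an adjusted p under 0.05. At 48 h WNT10A and SFRP5 are below 0 in normoxia, at -2.23 and -1.39, while their open hypoxia points lie at 0.26 and -0.22. WNT5A is filled at 0.37 in normoxia, with an open hypoxia point at -0.21.

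Count ratios between a pair of members within 1 library are free of any scaling between libraries. The pairs were chosen after their values were seen, so the ratios are a description with no test. The log2 ratio of WNT5A to WNT5B averaged 0.46 ± 0.32 at 0 h (SD, n = 5). In hypoxia it averaged 0.30 ± 0.20 at 12 h, 0.72 ± 0.23 at 24 h, 1.79 ± 0.39 at 36 h and 1.64 ± 0.18 at 48 h, and in normoxia 0.99 ± 0.17, 1.77 ± 0.36, 3.02 ± 0.45 and 2.99 ± 0.19 at the same times (SD, n = 6 each). The ratio was higher at 48 h than at 0 h in both oxygen levels, and at each of the 4 harvests the hypoxia libraries lay below the normoxia libraries with no overlap. The difference was -0.69, -1.05, -1.23 and -1.35 at 12, 24, 36 and 48 h, and -0.91 at 48 h without the libraries above the gap.

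The log2 ratio of SFRP5 to GPC3 averaged 2.37 ± 0.31 at 0 h (SD, n = 5). In hypoxia it averaged 4.27 ± 0.22, 4.68 ± 0.85, 4.71 ± 0.39 and 5.55 ± 0.99 at 12, 24, 36 and 48 h, and in normoxia 3.35 ± 0.38, 2.00 ± 0.41, 2.19 ± 0.52 and 2.50 ± 0.52 (SD, n = 6 each). Hypoxia libraries lay above normoxia libraries at each harvest. At 48 h the hypoxia libraries ran from 4.47 to 7.03 (median 5.13) and the normoxia libraries from 1.67 to 3.12 (median 2.49). The hypoxia values of replicates 2 and 6 at 48 h, 7.03 and 6.52, rest on 4 and 6 GPC3 counts. The 48 h difference was 3.06, and it was 3.96 with technical replicate 1 alone and 2.28 with technical replicate 2 alone.

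**Figure D4:**
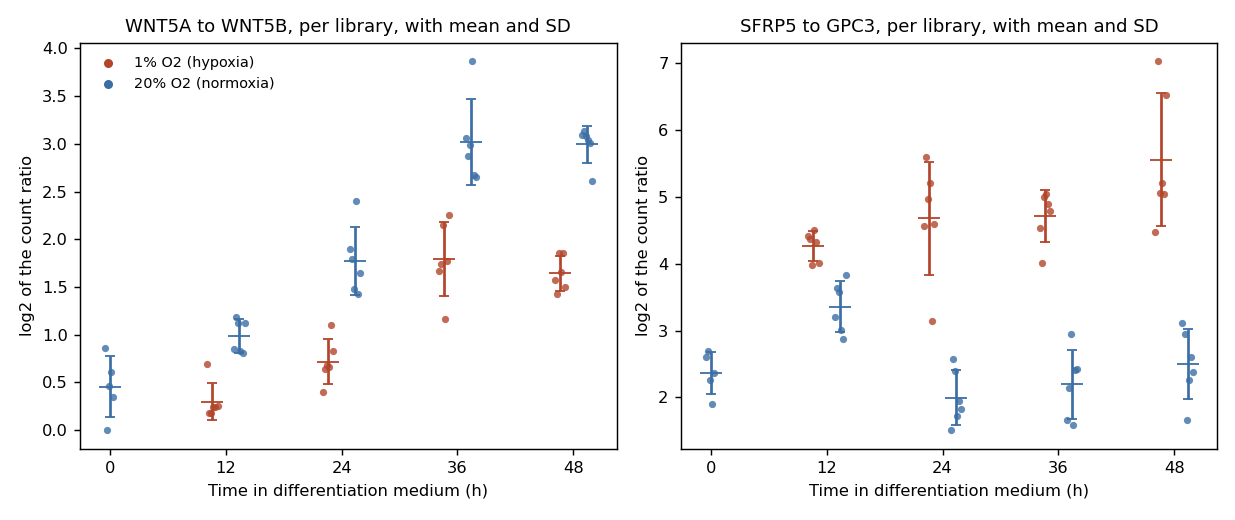
Log2 ratio of counts within a library (vertical axes) against time in h for WNT5A to WNT5B (left) and SFRP5 to GPC3 (right), with 1 point per library, the mean as a short line and the SD as a bar. Hypoxia lies below normoxia on the left and above it on the right at each of the 4 harvests from 12 h on.

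Among themselves the members fell into unlike courses. Over the 9 group means of log2 CPM, Pearson's r was 0.89 between WNT10A and SFRP5 and 0.88 between WNT5B and SFRP5. It was 0.72 between WNT5B and WNT10A and 0.69 between WNT5A and GPC3. It was -0.11 between WNT5A and WNT5B, 0.03 between SFRP5 and GPC3, and lowest between WNT5A and WNT10A (-0.57). These values are descriptions over 9 points that share libraries, depth and scaling.

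The genes whose 9 group means followed each member most closely were also listed, with the same limit. These genes were picked for the highest r over all tested genes, so high values of r come with the choice. For WNT5A they were ENSGALG00000012061 (r = 0.932) and the phosphatase ALPL (0.913), and for GPC3 the malate dehydrogenase MDH2 (0.963) and the tolloid-like protease TLL1 (0.961). MDH2 averaged 307 ± 70.4 CPM in hypoxia and 518 ± 32.6 CPM in normoxia at 48 h (SD, n = 6 each). For WNT10A they were the hexokinase HK2 (0.939) and the activin and myostatin antagonist FST (0.923), and HK2 averaged 1551 ± 433 CPM in hypoxia and 307 ± 46.8 CPM in normoxia at 48 h (SD, n = 6 each). For SFRP5 they were the myogenic precursor factor PAX3 (r = 0.960) and the kinase PRKG2 (0.947). PAX3 averaged 762 ± 216 CPM in hypoxia and 403 ± 74.4 CPM in normoxia at 48 h (SD, n = 6 each). WNT5B ran closest to LMNA_1 (r = 0.969) and the growth factor CSF1 (0.954), and WNT4 to the fatty acid elongase ELOVL7 (0.955) and the receptor FGFR2 (0.904). WNT4 was near the limit of detection in every group after 0 h, so both of its values of r rest largely on 0 h. ELOVL7 averaged 1893 CPM at 0 h and 702 to 990 CPM in the later groups.

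Of 99 other Wnt pathway gene symbols listed, aliases included, 10 were on the panel and 9 were tested. These were the ligand WNT11, the receptor FZD6, the antagonists SFRP1 and SOST, the glypican GPC4, and the intracellular CTNNB1, GSK3B, NFATC1 and MAPK8. At 12, 24 and 36 h 0 of 9 differed between hypoxia and normoxia in edgeR, with 1, 0 and 0 at an unadjusted p under 0.05 and 0 in DESeq2 each time. Over all tested genes the shares that passed were 17.9%, 18.5% and 16.3% at these harvests and 22.3% at 48 h. With only 9 genes, few calls are near such shares and are not read as a contrast with the members. At 48 h SFRP1 was higher in hypoxia, with 436 ± 139 CPM in hypoxia and 247 ± 63.2 CPM in normoxia (SD, n = 6 each; log2 0.82, SE 0.28, adjusted p = 0.024), and 8 of 9 did not pass. The SFRP1 call was lost without the libraries above the gap. At 12 h the log2 value of SFRP1 between hypoxia and normoxia was -0.58 (SE 0.27, adjusted p = 0.128), in the opposite direction, and did not pass. SFRP1 was lower at 48 h than at 0 h in hypoxia (log2 -1.32, SE 0.29) and in normoxia (log2 -2.14, SE 0.29). CTNNB1, which encodes beta-catenin, was higher at 48 h than at 0 h in hypoxia (log2 0.19, SE 0.07, adjusted p = 0.0204), and its 0.14 in normoxia did not pass (adjusted p = 0.0975). The CTNNB1 call in hypoxia was also lost without the libraries above the gap. The median log2 change of the 9 genes between hypoxia and normoxia at 48 h was -0.06. SOST is among the 17 genes of the score that sets libraries apart.

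Of 34 gene symbols listed as Wnt targets, aliases included and whatever the tissue, 12 were on the panel, and these 12 were tested. AXIN2 and LEF1 were listed but were not on the panel. Between hypoxia and normoxia 3 passed at 12 h (2 higher, 1 lower), 3 at 24 h (3 higher, 0 lower), 4 at 36 h and 4 at 48 h (3 higher, 1 lower each). Over all tested genes the shares that passed were 17.9%, 18.5%, 16.3% and 22.3%, and DESeq2 called 2, 4, 4 and 4 of the 12. FST was higher at each harvest, with 6294 ± 640.2 CPM in hypoxia and 2806.5 ± 263 CPM in normoxia at 48 h (SD, n = 6 each; log2 1.17, SE 0.08, adjusted p = 1.27e-16). The matrix protease MMP9 was higher from 24 h on, at 48 h by a log2 change of 1.66 (SE 0.28, adjusted p = 6.4e-06), and the growth factor BMP4 at 12, 36 and 48 h, at 48 h by 0.27 (SE 0.09, adjusted p = 0.0204). The growth factor FGF18 was lower at 36 and 48 h, at 48 h by -1.20 on the log2 scale (SE 0.28, adjusted p = 0.000707). The nuclear receptor PPARD was lower at 12 h (log2 -0.82, SE 0.30, adjusted p = 0.0473). Its values at 24, 36 and 48 h were positive (log2 0.64, 0.39 and 0.71) and did not pass. The hypoxia effect on PPARD, FST and MMP9 differed between harvests, 3 of 12 targets against 10.6% of tested genes. VEGFA, an angiogenic factor that is also a known hypoxia target, was higher at 24 h (log2 0.15, SE 0.05, adjusted p = 0.0459). Many of these genes answer to other signals too, and the median log2 change of the 12 was 0.17 at 48 h. Without the libraries above the gap 0 passed at 12 h, 1 at 24 h, 3 at 36 h and 1 at 48 h, with FST among them from 24 h on.

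**Figure D5:**
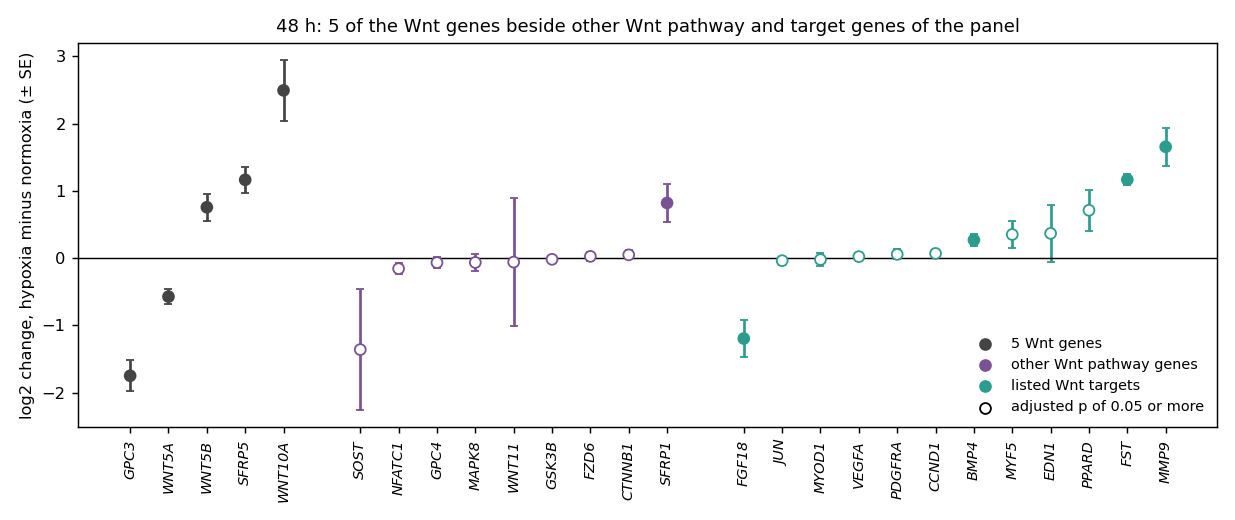
Log2 change of hypoxia over normoxia at 48 h (vertical axis, ± SE) of 5 of the genes (WNT4 is left out), 9 other tested Wnt pathway genes and 12 listed Wnt targets, sorted within each list, with filled points for an adjusted p under 0.05. The 5 members shown are filled, 1 of the 9 pathway genes (SFRP1) is filled, and 4 of the 12 targets are. Of all tested genes 22.3% passed at 48 h.

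Markers of other cell types were read beside these results. Of 7 tested fibroblast markers DPT was lower in hypoxia at each harvest, with log2 changes of -0.60, -0.99, -1.15 and -1.03 at 12, 24, 36 and 48 h. TCF21 was lower at 12 h and FAP at 36 and 48 h, and none was higher. The summed level of the 8 fibroblast markers on the panel at 48 h ran from 20937 to 24503 CPM in hypoxia and from 24304 to 25737 CPM in normoxia, while group medians of that sum over the 9 groups lay between 21977 and 26391 CPM. Group means ran from 3985 to 4580.1 CPM for COL1A1, from 4117 to 5349 CPM for COL3A1 and from 4053 to 5234.5 CPM for POSTN. Those of PDGFRA ran from 4487 to 5321 CPM, of FAP from 2729 to 4084 CPM and of COL1A2 from 0.61 to 6.68 CPM. DPT and TCF21 were less even, with group means from 386 to 2900 CPM and from 46.6 to 175.4 CPM. The lowest DPT mean was at 0 h and the highest in normoxia at 48 h (log2 change 2.92, SE 0.18). Of 3 tested endothelial markers VWF was higher in hypoxia at 24 and 48 h and ENG at 48 h, and the sum of 4 such markers at 48 h ran from 214 to 569.6 CPM in hypoxia and from 95.4 to 245 CPM in normoxia. The endothelial marker PECAM1 and the leukocyte marker PTPRC were near 0, with group means of at most 4.86 and 8.59 CPM. Of 5 adipocyte markers 0 differed between hypoxia and normoxia. The part of these markers in the results for the 6 genes was not tested.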

How the data were processed

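Per the labels' protocols, total RNA was reverse transcribed and amplified with primers designed on the chicken reference for targeted RNA-seq. The authors deposited raw read counts for 590 transcripts in 106 columns, which are 53 libraries in 2 technical replicates. The submitters' processing notes name the galGal6 build. For the aligner and the counting tool, the sources used here give no name. Blank cells (1160 in 21 columns, 9 of them in members) were read as 0, and technical replicate 1 of normoxia 0 h replicate 1 holds neither a blank nor a 0. Transcripts were summed to 569 genes and technical replicates to libraries. The labels state no molecular identifiers, so counting limits cover counting error only.

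The 453 genes that passed filterByExpr were scaled by TMM, and 1 fit over the 9 groups was tested by quasi-likelihood (edgeR 4.0.16 in R 4.3.3). All adjusted p-values are from that test unless DESeq2 1.42.0 is named. Standard errors were derived from the log2 change and its F statistic. The procedure was also run on simulated counts drawn independently for each library. Such counts cannot check what the libraries above the gap do to the calls.

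The members, gene lists and comparisons were chosen with earlier results of these data known. The genes named are the 6 members, called genes of the other Wnt and target lists, and the 2 genes with the most similar group means for each member. The 17-gene score, the fit without the libraries above its gap and the ratios were added after values were seen.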

Additional observations from a re-analysis of the deposited data

Results flagged for a closer look

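In 72 groups of member values and ratios, 7 single libraries stood far from the rest of their group by Dixon's criterion, which chance alone meets in about 1 in 20 groups. SFRP5 in hypoxia at 36 h was at 2625 CPM in replicate 4, and the next library at 1679 CPM. WNT5B in hypoxia replicate 1 was at 1161 CPM at 12 h, below the next at 1619 CPM, and at 1345.6 CPM at 24 h, above the next at 923 CPM. WNT5A in normoxia at 24 h was at 2096 CPM in replicate 2, and the next library at 2685 CPM. The log2 ratio of WNT5A to WNT5B was 0.69 in hypoxia at 12 h in replicate 1, above the next at 0.25. In normoxia that ratio was 3.87 at 36 h in replicate 4, above the next at 3.06, and 2.61 at 48 h in replicate 6, below the next at 3.00. The hypoxia effect on SFRP5 differed between the 4 harvests by the interaction test of edgeR (adjusted p = 0.00581), with log2 changes of 0.02, 0.87, 0.95 and 1.16 at 12, 24, 36 and 48 h.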

How the results depend on the processing

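Leaving out WNT4 against 0 h, 15 of 25 called results of single members held in each of the alternatives that gave a value, out of 16, and 10 were lost in some, with 0 in the opposite direction. The 25 results that did not pass changed sign 31 times in all. Both sets include differences between harvests, which have no sign and so could not change it. The number of tested genes called at 12 h between hypoxia and normoxia (81) was 44 with reference-gene scaling, 47 with technical replicate 1 alone, 131 with only the groups compared, 24 without the libraries above the gap, and 44 to 86 without 1 replicate number. With reference-gene scaling 11 of the 44 were higher and 33 lower, against 34 and 47 of the 81, and the median log2 change of all genes was -0.07 against 0.04. At 24 h the 84 became 55 and 49 with technical replicate 1 or 2 alone and 42 with only the groups compared. The 74 at 36 h became 39 with technical replicate 2 alone and 33 with only the groups compared, and the 101 at 48 h became 22 without the libraries above the gap. Against 0 h in normoxia, 82 genes at 12 h became 52 and 184 at 48 h became 68 without those libraries. The 48 genes whose hypoxia effect differed between harvests became 21 with reference-gene scaling, 30 and 25 with technical replicate 1 or 2 alone, 13 without the libraries above the gap, and 31 to 48 without 1 replicate number.

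Members called at 12 h (2) became 1 with technical replicate 1 alone, and at 48 h (6) became 1 without the libraries above the gap. Against 0 h at 12 h, with WNT4 left out, the call of GPC3 in hypoxia held with either technical replicate alone. That of WNT5A in normoxia was lost with technical replicate 1 alone. WNT4 did not pass the filter on low counts in fits of 1 technical replicate. The 1 member whose effect differed between harvests became 0 with reference-gene scaling, technical replicate 2 alone or without the libraries above the gap, and 2 (with WNT10A) in DESeq2 and with only the groups compared, and 1 to 2 without 1 replicate number. At 48 h the hypoxia minus normoxia difference of the log2 ratio of WNT5A to WNT5B, -1.35 in the main result, was -1.61 with technical replicate 2 alone. That difference was -0.91 without the libraries above the gap. The cause of these shifts was not tested.

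The labels do not say what libraries with the same replicate number share, so whether they are pairs is not known. The main fit did not pair them. Same-numbered libraries deviated together (r over 0.1) in 25 of 44 pairs of libraries, with r from -0.32 to 0.78, and 16 of 44 were closest to their own number. Depth did follow the number within a harvest: over 6 numbers the log2 totals of hypoxia and normoxia had an r of 0.995, 0.991, 0.966 and 0.982 at 12, 24, 36 and 48 h. The same number was lowest in both, 4 at 12 and 36 h and 6 at 24 and 48 h, a hint from the data and not from the design. The replicate block takes a number as the same over all groups, so it is not a check of pairs within a harvest. With the number as a replicate block, 2 members (with WNT10A) instead of 1 passed the difference between harvests, and no other count of members or genes moved by over 1.5 times. Depth limits WNT4 (a median of 2 counts per library), WNT10A (15) and, in hypoxia at 48 h, GPC3 (4 to 45 counts per library).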
